A study of Rattus norvegicus with 48 samples.

Results

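8 genes measured in rat cerebral endothelial cells (CECs) are described here, of 32624 features counted in each sample: the Polycomb chromobox genes Cbx2, Cbx6, Cbx7 and Cbx8, the Polycomb ring finger gene Bmi1, and the heterochromatin protein 1 (HP1) genes Cbx1, Cbx3 and Cbx5. The set was chosen by the measured level of Cbx2, which was lower after 2 days of fasting than after 1 day and higher again after 3 days. The HP1 genes were added as the other branch of the chromobox family. The levels of Cbx2 are therefore given as a description and were not tested, whereas the remaining 7 genes were tested. All 8 genes were read at least once in every one of the 12 samples. This was so for 13050 features, and these were tested.

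RNA was sequenced from CECs of the cortex of male Wistar-Han rats. The rats were fed ad libitum (AL) or had food withdrawn for 1 day (F1), 2 days (F2) or 3 days (F3). Cells carrying CD11b, a surface marker of microglia, were depleted and cells carrying CD31, the endothelial protein encoded by Pecam1, were then selected. Each of the 4 groups had 3 samples from independent experiments, called i, j and k after the letter in the sample titles. Each sample came from pooled cortical tissue and was sequenced as 4 technical replicates whose counts were summed. The same letters recur in every group, so a letter may mark 1 experiment over the 4 groups, but the titles do not say so. The main test did not take the letters as a block. The p-values weigh each group difference against the spread between these pooled samples, which is not the spread between single rats. In such bulk RNA, fewer cells of a type and less RNA per cell cannot be told apart.

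Polycomb repressive complex 1 (PRC1) is a chromatin complex that keeps developmental and cell cycle genes silent. In its canonical form a CBX protein binds the methylated tail of histone H3 through its chromodomain, and a RING protein together with a Polycomb ring finger protein such as BMI1 places ubiquitin on histone H2A. The HP1 proteins carry a related chromodomain, which binds a different methylated site of histone H3 at heterochromatin, and they pack repeats and silent chromatin.

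In GRCr8, the assembly of the RefSeq tables used for gene order, Cbx2 and Cbx8 neighbour each other on chromosome 10, and Cbx6 and Cbx7 lie on chromosome 7. RefSeq windows from 250 bases before to 50 bases after 1 annotated start per gene were found for 7 of the 8 genes. This start is the outer end of the annotated gene for Cbx6 and Cbx8, and lies inside the gene for Cbx1 (16 bases), Cbx7 (370), Cbx3 (524), Bmi1 (3561) and Cbx5 (25457), so that these windows may belong to an inner start. The windows of Cbx6, Cbx7 and Cbx8 are printed 5′ to 3′ because these are the Polycomb chromobox genes set beside Cbx2 below. Capitals mark GC boxes, searched as GGGCGG on both strands, so that a box on the opposite strand reads CCGCCC. The Cbx6 window is chr7:113263364-113263663, that of Cbx7 chr7:113358297-113358596 and that of Cbx8 chr10:104795451-104795750, all on the minus strand of GRCr8.
Cbx6: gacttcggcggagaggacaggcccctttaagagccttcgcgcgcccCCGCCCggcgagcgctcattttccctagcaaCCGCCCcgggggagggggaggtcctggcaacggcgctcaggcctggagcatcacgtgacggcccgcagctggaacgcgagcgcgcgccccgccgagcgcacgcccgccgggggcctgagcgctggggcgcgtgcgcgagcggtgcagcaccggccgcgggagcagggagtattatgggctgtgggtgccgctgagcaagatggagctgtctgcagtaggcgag
Cbx7: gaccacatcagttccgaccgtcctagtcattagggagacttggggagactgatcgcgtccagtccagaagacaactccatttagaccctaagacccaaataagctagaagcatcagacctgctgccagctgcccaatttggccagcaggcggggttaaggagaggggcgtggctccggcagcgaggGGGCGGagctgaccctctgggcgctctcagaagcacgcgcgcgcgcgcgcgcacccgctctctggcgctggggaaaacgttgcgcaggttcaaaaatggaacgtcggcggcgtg
Cbx8: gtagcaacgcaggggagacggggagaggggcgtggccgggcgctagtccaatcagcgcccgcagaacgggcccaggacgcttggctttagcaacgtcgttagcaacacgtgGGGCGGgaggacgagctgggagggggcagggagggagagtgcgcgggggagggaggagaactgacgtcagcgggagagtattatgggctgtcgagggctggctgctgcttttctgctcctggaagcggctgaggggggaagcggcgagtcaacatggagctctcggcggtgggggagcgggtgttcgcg

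A GC box was found in all 7 windows, 2 in Cbx6 and 1 each in Cbx7 and Cbx8, whereas 33.1% of all 33469 rat windows held at least 1. CpG pairs numbered 38 in the Cbx6 window, 26 in Cbx7 and 27 in Cbx8, against a median of 7 over all windows. Among the other genes the CpG number was 38 for Cbx3, 20 for Bmi1, 20 for Cbx1 and 10 for Cbx5, so that Cbx5 was nearest to the median. The E box CACGTG was present in the windows of Cbx6 and Cbx8 and in 6.42% of all windows. The CCAAT box, searched as CCAAT on both strands, was present in Cbx7 and Cbx8 and in 37.5% of all windows. The TATA box TATAAA was in 0 of the 7 windows and in 14.2% of all, and the nuclear receptor motif AGGTCA was in 0 of the 7 and in 16.2% of all, with both strands searched for each motif. These motif matches describe the letters of the windows and are no evidence of binding.

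Total assigned reads per sample ranged from 20718644 to 25960874. F2 sample j stood apart from the other samples: among genes with a mean of at least 100 normalized counts, 11.9% lay over 0.5 on the log2 scale from the mean of the other 2 F2 samples, against 1.09% to 4.25% in the other 11 samples. Of 7 listed endothelial markers, 5 could be matched to an identifier, and their summed level was 310541 to 322326 normalized counts in AL, 322922 to 355903 in F1, 330516 to 363308 in F2 and 323930 to 330348 in F3. Pecam1 ranged from 31655 to 38792, with its highest group mean in F1 (37034) and its lowest in F2 (32113), the groups in which Cbx6 was highest and lowest too. Adgrl4 had means of 25301 in AL, 33183 in F1, 27471 in F2 and 35642 in F3, high on the days when Cbx2 was high. In contrast, Abcg2 (28356), Bsg (181952) and Abcb1a (76802) had their highest means in F2. The means of Abcb1a in the other groups were 74499 in AL, 74239 in F1 and 74987 in F3. The part of these markers in the results was not tested. The summed level of 6 of 7 listed microglial markers ranged from 56.7 to 134. The other marker lists were represented by few genes: Bsn for neurons ranged from 1.01 to 9.20 normalized counts, Aspa for oligodendrocytes from 15.6 to 34.1, Aldoc for astrocytes from 1529.6 to 2277 and Alas2 for red blood cells from 36.1 to 110.3. Of 7 pericyte and smooth muscle markers, 3 (Abcc9, Anpep and Acta2) could be matched, and their sum was 1908 to 4372 in AL, 2066 to 2365 in F1, 2451 to 4744 in F2 and 1689 to 4443 in F3. This sum did not overlap between F1 and F2, as was so for 21.8% of all genes, and its part in the differences between F2 and F1 given below was not tested.

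Cbx2, a chromobox subunit of PRC1 known for its role in gonad and skeletal development, alternated between the days of fasting. Normalized counts, which are reads adjusted to the mean effective library size after TMM scaling, were 90.2, 88.3 and 107 in the AL samples i, j and k, and 159.5, 124 and 149 in the F1 samples. They were 80.2, 67.4 and 85.2 in F2 and 163, 162 and 126 in F3. All F1 and F3 samples were above all AL samples, and all F2 samples were below all AL samples, although F2 sample k at 85.2 was close to AL sample j at 88.3.

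The mean of Cbx2 was 95.0 ± 10.1 normalized counts (SD, n = 3) in AL, 144 ± 18.3 in F1, 77.6 ± 9.20 in F2 and 151 ± 21.2 in F3. The F2 mean was thus 0.538 times the F1 mean, and the F3 mean was 1.94 times the F2 mean. On the log2 scale the fold change (LFC) was 0.60 with a standard error (SE) of 0.16 for F1 against AL, -0.29 (SE 0.17) for F2 against AL and 0.67 (SE 0.16) for F3 against AL. Between fasting days it was -0.89 (SE 0.16) for F2 against F1 and 0.96 (SE 0.16) for F3 against F2. The gene was chosen by the contrasts between fasting days, and those against AL share the same F1, F2 and F3 samples, so no p-value is given for either. Without F2 sample j, which had the lowest Cbx2 level, the LFC was -0.80 for F2 against F1, 0.86 for F3 against F2 and -0.20 for F2 against AL. The counts were small, with 68 to 176 reads per sample, so counting error adds to the spread between samples.

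**Figure D1:**
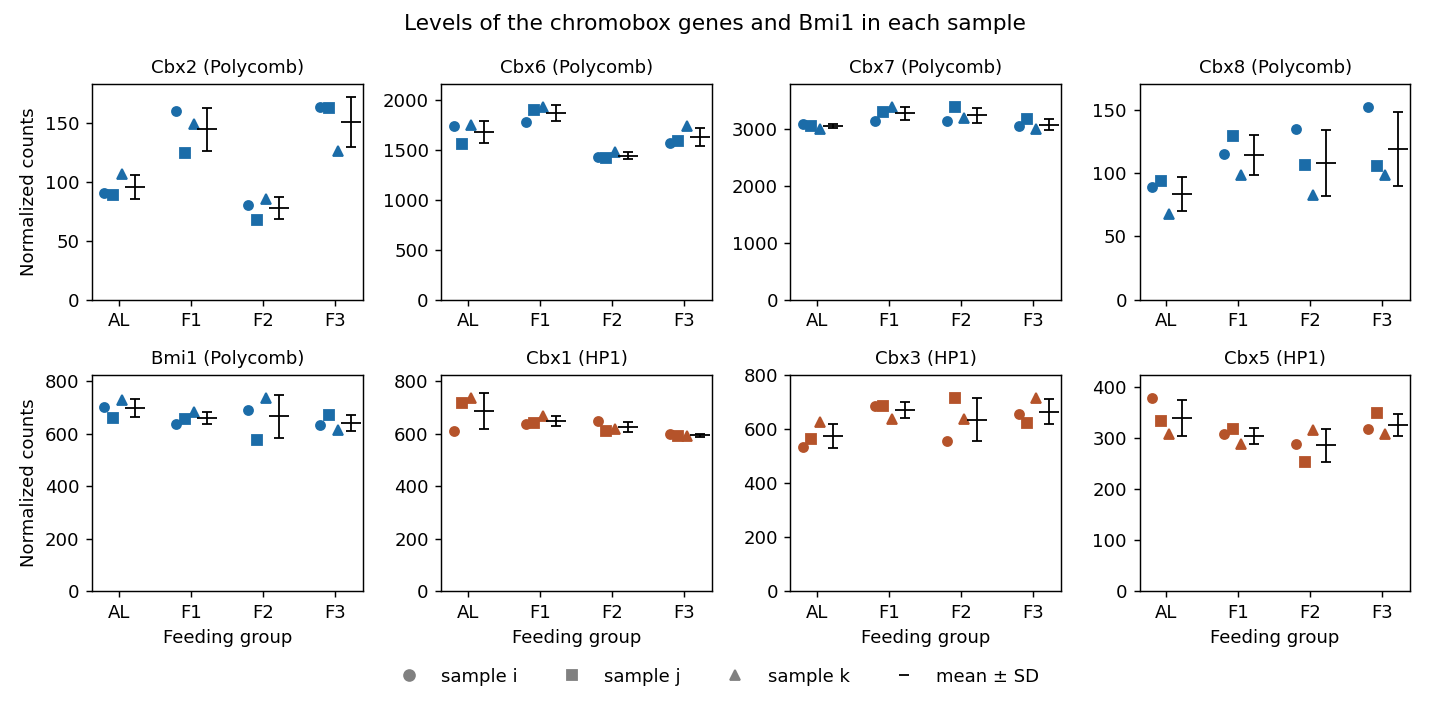
Normalized counts of the 8 genes in each sample of the AL, F1, F2 and F3 groups (circles, squares and triangles are samples i, j and k, the bars are mean ± SD, n = 3, and each panel has its own linear axis from 0). Cbx2 is high in F1 and F3 and low in AL and F2, Cbx6 has its highest mean in F1 (1869) and its lowest in F2 (1439.6), and Cbx7 stays between 3003 and 3387.

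Of the 7 tested genes, Cbx6 was the one called between groups. Cbx6, a chromobox subunit of PRC1, had 1740.0, 1552 and 1745 normalized counts in AL and 1778, 1899.9 and 1929 in F1. In F2 it had 1427, 1414 and 1478, and in F3 1565, 1590.2 and 1734. All F2 samples were below all samples of the other 3 groups, all F1 samples were above all others, and AL and F3 overlapped.

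Cbx6 fell by 0.38 on the log2 scale from F1 to F2 (SE 0.07, adjusted p = 0.0313 by the quasi-likelihood test of edgeR, adjusted by Benjamini-Hochberg over all tested genes), so that the F2 mean was 0.770 times the F1 mean. In this comparison 1 of the 7 genes passed the adjusted threshold of 0.05, against 1.34% of all genes in either direction and 0.935% as lower, and the same 1 gene had groups that did not overlap, against 21.8% of all genes. The call remained without F2 sample j (LFC -0.36, adjusted p = 0.0457) but was lost without F1 sample i (adjusted p = 0.0677), F1 sample j (0.140), F1 sample k (0.0732), F2 sample i (0.0526) or F2 sample k (0.0610), and in a fit of only the 6 samples compared (0.0730). Against AL the LFC of Cbx6 was 0.15 in F1 (SE 0.07, adjusted p = 0.226), -0.22 in F2 (SE 0.07, adjusted p = 0.180) and -0.04 in F3 (SE 0.07, adjusted p = 0.757). From F2 to F3 it was 0.18 (SE 0.07, adjusted p = 0.151), with all F3 samples above all F2 samples. In a joint edgeR test of the 4 groups on the same samples, Cbx6 was the 1 gene of 7 called (adjusted p = 0.0199), against 9.98% of all genes. The joint call was lost without F1 sample j, F1 sample k or F2 sample i.

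The levels of Cbx2 and Cbx6 had the same order of F1 above AL and AL above F2, but the differences were not of one size: between F1 and F2 the LFC of Cbx2 was -0.89 and that of Cbx6 was -0.38, and against AL the LFC at F3 was 0.67 for Cbx2 and -0.04 for Cbx6. Over the 12 samples Pearson's r between their log2 CPM values was 0.59 and Spearman's rho 0.59, given as a description because the samples share the groups by which Cbx2 was chosen. For the other 6 genes r with Cbx2 ranged from -0.19 (Cbx1) to 0.32 (Cbx3).

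Cbx7, the PRC1 chromobox subunit first known for extending the lifespan of cultured cells through repression of the Cdkn2a locus, varied least. It had 3077, 3056 and 3005 normalized counts in AL, 3146, 3289 and 3375 in F1, 3131, 3387 and 3188 in F2, and 3049, 3176 and 3003 in F3. All F1 and F2 samples were above all AL samples, but by little. The LFC against AL was 0.10 in F1 (SE 0.06, adjusted p = 0.371), 0.09 in F2 (adjusted p = 0.586) and 0.01 in F3 (adjusted p = 0.917), the last of which turned sign under scaling by total counts. Between fasting days it was -0.02 for F2 against F1, which also turned sign under total-count and upper-quartile scaling, and -0.07 for F3 against F2.

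Cbx8, a PRC1 chromobox subunit that represses the Cdkn2a locus in fibroblasts, had 61 to 164 reads per sample. It had 89.3, 93.3 and 67.8 normalized counts in AL, 115, 129 and 98.4 in F1, 134, 106 and 82.2 in F2, and 152, 105 and 98.3 in F3. The F1 and F3 samples were all above the AL samples, while F2 overlapped AL through its sample k. Its means were 83.4 ± 13.7 in AL, 114 ± 15.4 in F1, 108 ± 26.1 in F2 and 119 ± 29.3 in F3 (SD, n = 3). The LFC against AL was 0.45 in F1 (SE 0.22, adjusted p = 0.277), 0.36 in F2 (SE 0.22, adjusted p = 0.528) and 0.51 in F3 (SE 0.22, adjusted p = 0.165), none of which passed the threshold. Without F2 sample i the value in F2 was 0.17, without AL sample k it was 0.24, and without F3 sample i the value in F3 was 0.28. From F1 to F2 the LFC of Cbx8 was -0.09 (SE 0.22, adjusted p = 0.876) and from F2 to F3 it was 0.14 (SE 0.22, adjusted p = 0.741), and both signs depended on single samples.

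Bmi1, the ring finger partner that stimulates ubiquitin transfer in PRC1, had overlapping groups in every comparison. Its level was 703, 660.1 and 728 normalized counts in AL, 636, 657 and 682 in F1, 689.6, 576 and 735 in F2, and 635, 671 and 613 in F3. F2 sample j was the lowest of the 12 samples. The LFC against AL was -0.08 in F1 (SE 0.09, adjusted p = 0.662), -0.06 in F2 (adjusted p = 0.813) and -0.12 in F3 (adjusted p = 0.437). Without F2 sample j the value in F2 was 0.032. From F1 to F2 the LFC was 0.02 (adjusted p = 0.943) and from F2 to F3 it was -0.06 (adjusted p = 0.744).

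Within the summed normalized counts of Cbx2, Cbx6, Cbx7 and Cbx8, the share of Cbx2 was 1.94% ± 0.198 (SD, n = 3) in AL, 2.68% ± 0.395 in F1, 1.60% ± 0.216 in F2 and 3.03% ± 0.421 in F3. The share of Cbx6 was 34.2% ± 1.60 in AL, 34.6% ± 0.368 in F1, 29.6% ± 1.10 in F2 and 32.8% ± 1.89 in F3. These shares are of reads and not of molecules, since longer transcripts give more reads. The sum of the 4 genes was 4904 ± 105 normalized counts in AL, 5398 ± 181 in F1, 4860.1 ± 103 in F2 and 4974 ± 53.4 in F3. The F1 sums, which include Cbx2, were all above those of the other groups.

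None of the HP1 genes passed the threshold in any of the 5 comparisons. Cbx1 encodes HP1 beta, a protein of pericentromeric heterochromatin. Its level was 610.1, 718 and 736 normalized counts in AL, 638, 640.0 and 669 in F1, 648, 611 and 619 in F2, and 599.5, 591 and 591 in F3. The 3 F3 samples were below all other samples, and AL sample i was the lowest of its group. The LFC of F3 against AL was -0.21 (SE 0.08, adjusted p = 0.109, unadjusted p = 0.0198 in the edgeR fit). It passed the threshold without AL sample i (LFC -0.28, adjusted p = 0.0441) and with scaling by total counts (LFC -0.26, adjusted p = 0.0483).

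Cbx3 encodes HP1 gamma, which is also found on transcribed genes. It had 536, 564 and 626 normalized counts in AL, 688, 686 and 637 in F1, 556, 714 and 637 in F2, and 656, 623 and 715 in F3. F1 was above AL without overlap, while F2 spanned most of the range of the other groups. The LFC against AL was 0.22 in F1 (SE 0.10, adjusted p = 0.224), 0.15 in F2 (adjusted p = 0.578) and 0.21 in F3 (SE 0.10, adjusted p = 0.203). Without F2 sample j, the highest of its group for Cbx3, the value in F2 was 0.054, and without F2 sample i, the lowest, it was 0.23. RefSeq names 8 copies of Cbx3, 2 of Cbx1 and 1 of Cbx2, and since reads matching more than once were removed by the authors, the levels of these genes are uncertain.

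Cbx5 encodes HP1 alpha, a structural protein of heterochromatin. It had 377, 333 and 307 normalized counts in AL, 307, 316 and 287 in F1, 289, 252 and 315 in F2, and 317, 349 and 308 in F3. The groups overlapped in F1, F2 and F3 against AL. The LFC was -0.16 in F1 (SE 0.11, adjusted p = 0.456), -0.25 in F2 (SE 0.11, adjusted p = 0.361) and -0.06 in F3 (adjusted p = 0.778), and from F2 to F3 it was 0.19 (adjusted p = 0.343). F2 sample j was the lowest of the 12 samples, and without it the values were -0.17 in F2 against AL and 0.11 from F2 to F3. Without AL sample i, the highest of the 12, the value was -0.071 in F1 and -0.16 in F2. Cbx5 overlaps Hnrnpa1 and Cbx7 overlaps a long non-coding RNA in RefSeq, so that their counts are uncertain where the genes overlap.

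**Figure D2:**
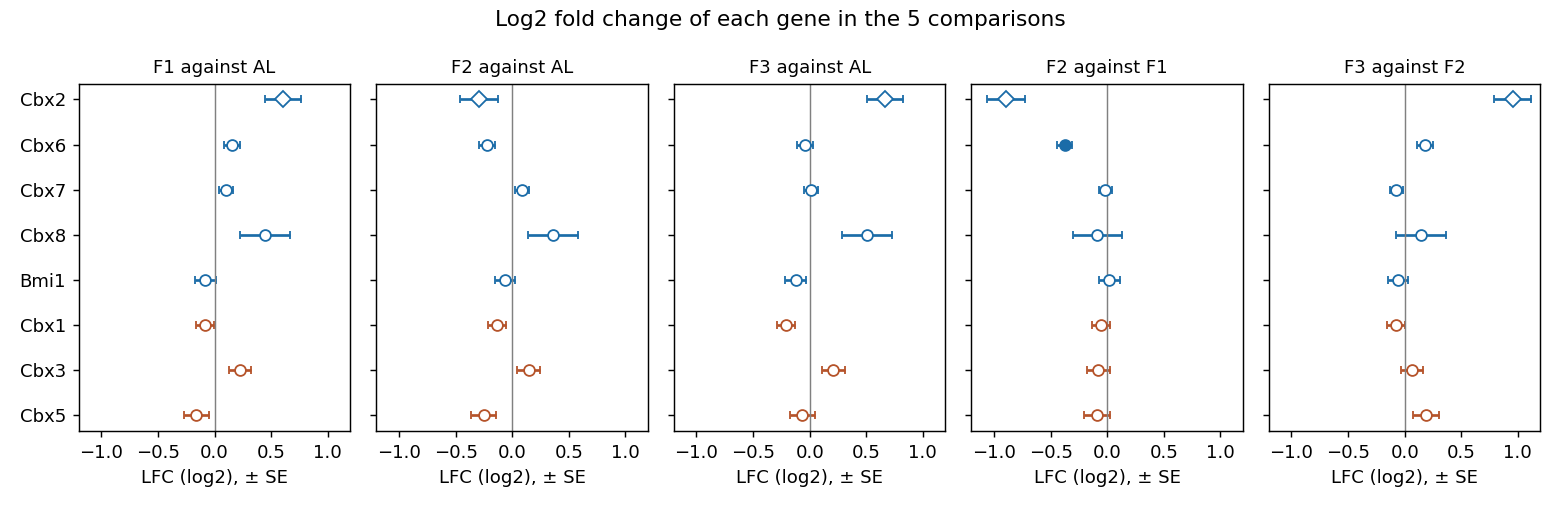
Log2 fold change of each gene with its SE in the 5 comparisons, from 1 edgeR fit of the 12 samples (filled symbols passed an adjusted p of 0.05, open symbols did not, and the diamond is Cbx2, which was not tested; blue marks Polycomb and orange HP1 genes). Cbx6 in F2 against F1 at -0.38 is the filled symbol, and Cbx2 lies farthest from 0 in each comparison except F2 against AL, where Cbx8 does (0.36).

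Across the 7 tested genes, F1 against AL gave 0 calls by edgeR, against 6.57% of all genes, with 2 of 7 at an unadjusted p under 0.05, against 20.8%. The groups did not overlap for 4 of the 7 genes, against 28.7% of all. F2 against AL gave 0 calls, against 0.920% of all genes, with 2 of 7 at an unadjusted p under 0.05, against 13.0%, and 2 of 7 without overlap, against 15.5%. F3 against AL gave 0 calls, against 12% of all genes, with 2 of 7 at an unadjusted p under 0.05, against 26.0%, and 2 of 7 without overlap, against 35.6%. F3 against F2 gave 0 calls, against 5.88%, with 1 of 7 at an unadjusted p under 0.05, against 22.1%, and 2 of 7 without overlap, against 26.8%. DESeq2 likewise gave 0 calls among the 7 genes in these 4 comparisons.

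The 4 tested Polycomb genes and the 3 HP1 genes had small and differing medians. For the Polycomb genes the median LFC was 0.13 in F1 against AL, 0.01 in F2 and -0.01 in F3, and for the HP1 genes it was -0.08, -0.13 and -0.06 in the same order, beside medians of -0.00, -0.01 and -0.01 over all genes. In F1 against AL the 4 Polycomb genes ranged from -0.08 (Bmi1) to 0.45 (Cbx8) and the 3 HP1 genes from -0.16 (Cbx5) to 0.22 (Cbx3). In F2 against F1 the median was -0.05 for the Polycomb genes and -0.08 for the HP1 genes, beside -0.002 over all genes. All 3 HP1 genes (-0.09 to -0.05) and 6 of the 7 genes had LFCs below 0, a sign that was common over all genes too, given that median. Cbx6 alone passed the threshold, and the signs of Cbx3, Cbx7 and Cbx8 turned when single samples were left out. In F3 against F2 the medians were 0.04 and 0.06, beside -0.008 over all genes.

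On chromosome 10 the means of Cbx2 and Cbx8 were higher in F1 and F3 than in AL, though Cbx8 did not pass the threshold. The F2 mean was below the AL mean for Cbx2 and above it for Cbx8. On chromosome 7 the highest and lowest group means of Cbx7 were 3270.2 and 3046 normalized counts, against 1869 and 1439.6 for Cbx6.

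**Figure D3:**
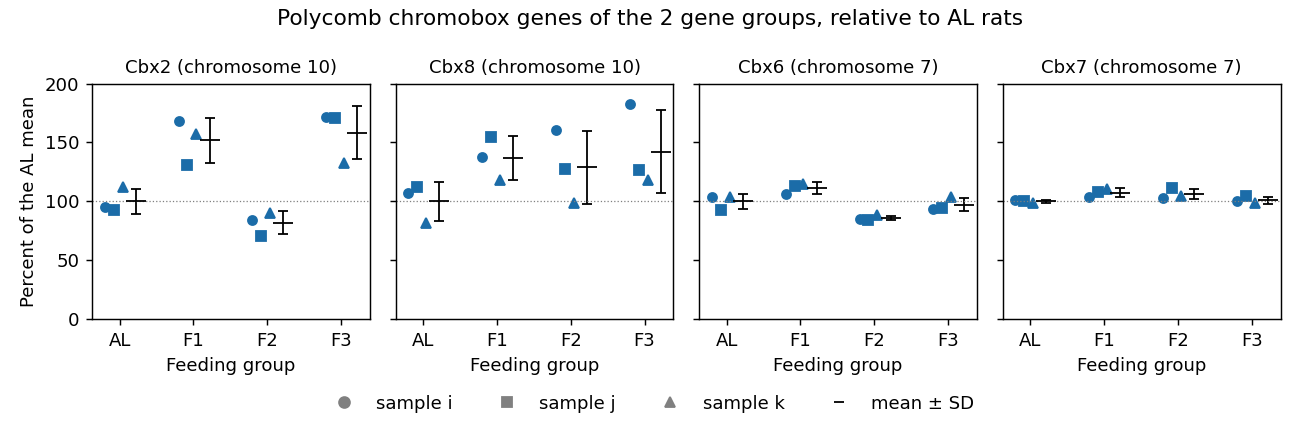
Normalized counts of the chromobox genes on chromosome 10 (Cbx2, Cbx8) and chromosome 7 (Cbx6, Cbx7) in each sample, as percent of the mean of the AL samples (circles, squares and triangles are samples i, j and k, the bars are mean ± SD, n = 3, and the dotted line is the AL mean). The F1 and F3 samples of Cbx2 and Cbx8 lie above those of AL, but Cbx8 did not pass the threshold. Over all genes, the groups did not overlap for 28.7% in F1 against AL and 35.6% in F3 against AL. In F2 the mean of Cbx2 is below that of AL and the mean of Cbx8 is above it, and Cbx6 is lowest in F2.

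Identifiers could be matched to symbols only from shortened copies of the supplementary tables, which hold mostly symbols beginning with A, B or C. The counts of listed genes therefore depend on the alphabet and not on what the study annotated. Of 17 listed PRC1 subunits outside the chromobox family, 3 could be matched: Bcor, Bcorl1 and Auts2. In F1 against AL, 0 of them rose and 1 fell (Bcorl1), against 2.64% of all genes called as lower. In F3 against AL, 1 rose (Bcor) and 1 fell (Bcorl1), against 6.28% higher and 5.73% lower. In F2 against AL, F2 against F1 and F3 against F2, 0 of the 3 passed the threshold in edgeR, against 0.920%, 1.34% and 5.88% of all genes.

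Bcorl1, which encodes a corepressor of variant PRC1, had 985, 942 and 1123 normalized counts in AL and 780.5, 826 and 854 in F1. It had 863, 794 and 802 in F2 and 707, 788 and 787 in F3. All F1, F2 and F3 samples were below all AL samples. Over all genes, the groups did not overlap for 28.7% in F1, 15.5% in F2 and 35.6% in F3 against AL. The LFC was -0.42 in F3 against AL (SE 0.08, adjusted p = 0.00554 by edgeR) and held in all 22 alternatives, and it was -0.31 in F1 (SE 0.08, adjusted p = 0.0425), a call lost in 10 of 22 alternatives with adjusted p up to 0.159. In F2 it was -0.31 as well, with an adjusted p of 0.113. Bcor, which encodes the BCL6 corepressor of a variant PRC1, had 3744, 5033 and 3675 normalized counts in AL and 5546, 5677 and 5455 in F3. Its LFC was 0.42 (SE 0.12, adjusted p = 0.0388), lost in 8 of 22 alternatives with adjusted p up to 0.136, among them those without AL sample i or k and without any single F3 sample.

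Aebp2 was the 1 of 11 listed subunits of Polycomb repressive complex 2 (PRC2), which methylates histone H3, that could be matched, and it was called in 0 of the 5 comparisons, with LFCs from -0.07 to 0.06. Of 15 listed opponents of Polycomb, 10 could be matched, and 1 of these was called in the 5 comparisons. Brd3, a reader of acetylated histones, had 1059.5, 872 and 989 normalized counts in F2 and 1199, 1206 and 1253 in F3, without overlap. It rose from F2 to F3 (LFC 0.32, SE 0.08, adjusted p = 0.0278 by edgeR, against 3.58% of all genes called as higher), also without F2 sample j (LFC 0.25, adjusted p = 0.0448), but not without F3 sample i (adjusted p = 0.0867), j (0.0661) or k (0.0863), nor in a fit of only the 6 samples compared (0.106). Of 17 listed partners of HP1 and enzymes of its histone mark, 7 could be matched and 0 were called in the 5 comparisons. The listed Polycomb targets Cdkn2a and Cdkn2b were not analysed here.

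By the rule of highest Pearson's r with Cbx2 over the 12 samples, among 1149 genes with a symbol in the shortened tables and a mean of at least 100 normalized counts, the most alike were Slc36a1 (r 0.93, rho 0.93), Atpaf1 (r 0.93, rho 0.91) and Card6 (r 0.91, rho 0.96). A supplementary table of the study lists ABC and SLC transporter genes that it found changed by fasting. Slc36a1 may therefore be among the genes compared because of such a change. Slc36a1 encodes a proton-coupled amino acid transporter and Atpaf1 an assembly factor of mitochondrial ATP synthase. Their group means had the order of Cbx2, with 128.9 normalized counts of Slc36a1 in F2 and 238 in F3, and 318 and 496 of Atpaf1. These correlations describe 12 samples in 4 groups and share the day pattern by which Cbx2 was chosen.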

How the data were processed

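RNA of sorted rat CECs was sequenced in 12 samples with 4 technical replicates each. The authors demultiplexed with bcl2fastq 2.18.0.12, aligned to Rnor_6.0 with STAR, removed reads matching more than once and counted reads on exons with HTSeq 0.5.3, and raw counts per Ensembl gene were deposited. The strand setting of the counting is not given in the sources used here.

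Technical replicates were summed. Replicate d of F1 sample k carries conflicting labels and was kept in F1, and an alternative leaves it out. Features with at least 1 read in every sample were tested with edgeR 4.0.16 in R 4.3.3 (TMM scaling, quasi-likelihood test, 1 model of 4 group means over 12 samples), with Benjamini-Hochberg adjustment over all 13050 features and a threshold of 0.05. Log2 CPM used a prior count of 2. The procedure was tested on simulated data with 200 changed genes. Symbols come from shortened copies of the study's supplementary tables, in which most symbols begin with A, B or C, so 2043 tested features could be named here. Every member is named, and of the other lists each gene past the threshold. Results for some genes are not reported here. The members and lists were chosen with earlier results of these data known.

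Alternatives were other scalings, filters, DESeq2 1.42.0, only the samples compared, a replicate block, and leaving out each sample.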

Additional observations from a re-analysis of the deposited data

Results flagged for a closer look

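Cbx6 differed between the F1 and F2 groups by an LFC of -0.38 in edgeR's test of the difference between these fasting days (adjusted p = 0.0313). The call held in 16 of 22 alternatives and was lost in most fits that left out 1 of the F1 or F2 samples. It stood at an LFC of 0.15 against AL after 1 day and -0.22 after 2 days, neither of which passed the threshold by itself. All 3 F2 samples lay below all 3 AL samples and all 3 F1 samples above them. Over all genes, the groups did not overlap for 15.5% in F2 against AL and 28.7% in F1 against AL. The marker sum of pericytes and smooth muscle (Abcc9, Anpep and Acta2) also did not overlap between F1 and F2, at 2066 to 2365 and 2451 to 4744 normalized counts. It ranged from 1908 to 4372 in AL, and 21.8% of all genes did not overlap in F2 against F1. The part of this sum in the difference was not tested.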

How the results depend on the processing

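Each LFC was recomputed under 22 alternatives. The number of the 7 tested genes past the threshold stayed at 0 in F1 against AL, F2 against AL and F3 against F2. In F3 against AL it was 1 with scaling by total counts (Cbx1) and 0 to 1 when single samples were left out. In F2 against F1 it was 0 in the fit of only the 6 samples compared and 0 to 1 when single samples were left out, and in the joint test it was 0 to 1 when single samples were left out. Without F1 sample i or without F1 sample j, edgeR called 0 of all genes in F2 against F1, where 175 were called with all samples. The cause of these changes was not tested. The LFC of Cbx7 in F3 against AL was -0.032 with total counts, and in F2 against F1 it was 0.0097 with total counts and 0.0076 with upper-quartile scaling. Leaving out single samples turned the sign of LFCs near 0, whose ranges were -0.0097 to 0.039 for Cbx7 in F3 against AL, -0.050 to 0.0080 for Cbx7, -0.28 to 0.074 for Cbx8, -0.057 to 0.11 for Bmi1 and -0.17 to 0.011 for Cbx3 in F2 against F1, -0.078 to 0.34 for Cbx8, -0.16 to 0.016 for Bmi1 and -0.023 to 0.16 for Cbx3 in F3 against F2, -0.14 to 0.032 for Bmi1 in F2 against AL, and -0.12 to 0.033 for Cbx5 in F3 against AL. The LFC of Cbx2 ranged from -0.99 to -0.80 in F2 against F1 and from 0.86 to 1.08 in F3 against F2. Cbx2 was chosen by these differences in the same samples. That its sign was kept is therefore given as a description and is no test of the pattern.

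With the sample letter as a replicate block, 1 of the 7 genes was called in F2 against F1 (Cbx6, LFC -0.38, adjusted p = 0.0385 by edgeR) and 0 in the other comparisons between 2 groups. Bcor in F3 against AL (adjusted p = 0.0559) and Bcorl1 in F1 against AL (0.0525) passed no longer. The main fit did not take the letters as pairs, and the correlations below do not settle whether they are. The correlation of deviations from the group means was over 0.1 in 7 of 18 same-letter pairs. Of 12 samples, 6 correlated best with their own letter. Same-letter correlations ranged from -0.11 to 0.21, and those between different letters from -0.25 to 0.28. Over all genes, the calls in F2 against F1 were 175, and 102 with the block, 36 with only the 6 samples compared, 305 with no filter and 616 with DESeq2. In F2 against AL they were 120, and 0, 196 and 359 under the last 3 of these, and in F3 against F2 they were 767, and 226 with only the 6 samples compared and 1242 with DESeq2. The joint test gave 1302, and 2090 with DESeq2. When single samples were left out, the calls over all genes, on which the shares printed beside the members rest, ranged from 305 (without F1 sample j) to 1468 (without F2 sample j) in F1 against AL, from 36 to 157 in F2 against AL, from 784 (without F3 sample i) to 2382 (without F2 sample j) in F3 against AL, from 0 to 182 in F2 against F1, and from 146 (without F3 sample i) to 749 in F3 against F2. The small counts of Cbx2 and Cbx8 limit what can be shown for them.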
